A study of Mus musculus with 2 samples.

Results

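The genes of the T cell co-receptors, Cd8a, Cd8b1 and Cd4, were examined in 2 sorted populations of mouse spleen dendritic cells (DCs). All probe sets annotated to exactly 1 gene, that gene being a co-receptor gene, were taken, which gave 8 probe sets among the 45101 on the array (34958 with a single gene). Cd8a had 5 of them, Cd4 had 2 and Cd8b1 had 1, and no probe set shared between several genes named any of the 3. The populations were CD8+ DCs (CD11c+ CD8α+ cells without CD3 or B220) and CD8- DCs (CD11c+ CD8α- cells without CD3 or B220), both unstimulated, from C57BL/6 mice in which DCs had been expanded for 10 to 12 days by B16 melanoma cells producing Flt3 ligand. Each population was hybridised to 1 array, so nothing here has a replicate, no test was made, and differences between mice, sorts or hybridisations cannot be told apart from differences between the populations. How many mice gave each RNA, whether mice were pooled, and their ages are not stated in the sources used here. Every mouse carried the tumour and received the cytokine, so neither population stands for an untreated spleen.

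CD4 and CD8 are surface glycoproteins of the immunoglobulin superfamily that bind MHC molecules beside the T cell receptor. CD4 works as a single chain and binds class II molecules, whereas CD8 is a dimer that binds class I molecules, either CD8α with CD8β, as on most cytotoxic T cells, or CD8α with itself. The tails of CD4 and CD8α hold the Src-family kinase LCK, which starts signalling at the T cell receptor. In mouse spleen, DCs without a T cell receptor also carry co-receptors: one conventional subset has CD8α homodimers and presents antigen on class I molecules efficiently, and a large part of the other subset has CD4. CD8α serves as a marker of the first subset.

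CD8α protein defined the sort, so the Cd8a signal checks the labels and is not a finding about the populations. Values are RMA signals on a log2 scale, and 1 unit is a 2-fold step. The median over both columns, 3.85, served as a floor, and a probe set counted as measured where at least 1 array reached it. No detection calls were used. Both arrays had nearly the same distribution (medians 3.86 in CD8+ DCs against 3.83 in CD8- DCs). In bulk RNA, fewer cells that carry a transcript and less of that transcript per cell cannot be told apart.

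Cd8a was higher in CD8+ DCs on all 5 of its probe sets, the direction that the labels give. Probe set 1451673_at, the one with the highest mean signal, read 11.29 in CD8+ DCs against 5.15 in CD8- DCs. Probe set 1425335_at, listed under the same mRNA record, read 10.56 in CD8+ DCs against 5.16 in CD8- DCs. The CD8+ array was therefore high and the CD8- array little above the floor on both, with log2 differences (CD8+ minus CD8-) of 6.14 and 5.40. Probe set 1444078_at read 9.51 in CD8+ DCs against 3.24 in CD8- DCs. Probe set 1440811_x_at read 7.68 in CD8+ DCs against 2.52 in CD8- DCs. On both of these the CD8- value lay below the floor, so the folds in favour of CD8+ DCs are bounds, at least 50.7-fold and at least 14.2-fold. The fifth, 1440164_x_at, stood apart from the others, with 5.71 in CD8+ DCs against 3.98 in CD8- DCs, a difference of 1.73. The suffix _x_at marks probe sets that the array's design lists as prone to cross-hybridisation, and 2 of the Cd8a probe sets carry it.

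**Figure D1:**
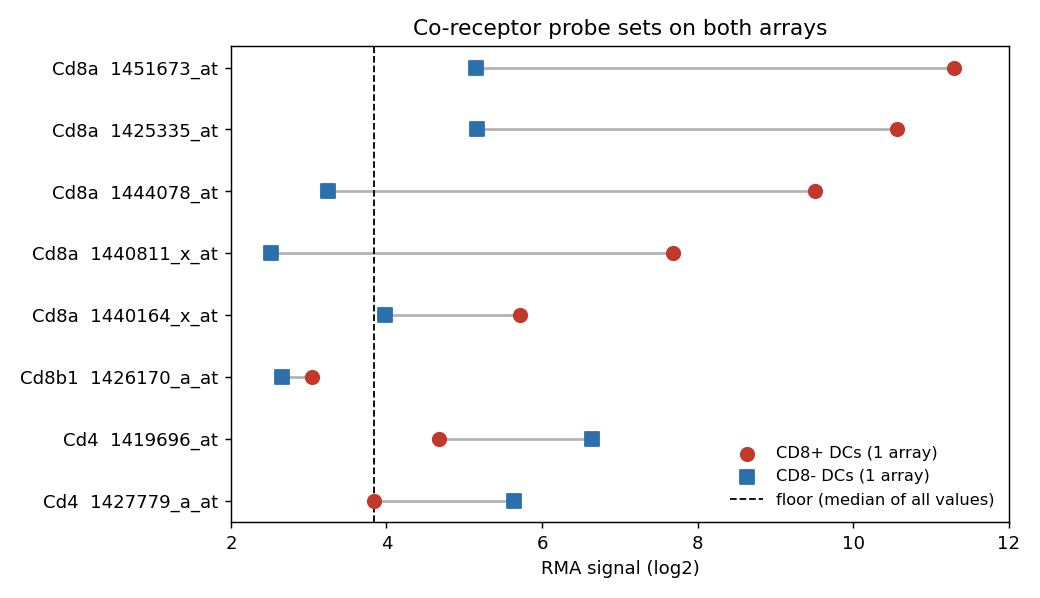
RMA signal (log2, horizontal axis) of the 8 co-receptor probe sets, with a circle for the CD8+ DC array, a square for the CD8- DC array and a dashed line at the floor of 3.85. All 5 Cd8a probe sets lie higher in CD8+ DCs, both Cd4 probe sets lie higher in CD8- DCs, and the Cd8b1 probe set is left of the floor on both arrays.

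The share of the CD8+ signal that remained in CD8- DCs depended on the probe set. On the linear scale it was 1.42% for 1451673_at and 2.37% for 1425335_at. It was larger, 30.1%, for 1440164_x_at, which read 0.13 log2 units above the floor in CD8- DCs. The 5 differences had a median of 5.40, a range of 4.53 and an SD over probe sets of 1.85, where probe sets of 1 gene share the RNA and are no replicates. Among the 235 genes with 5 measured probe sets the median range was 0.47, and the range exceeded that of Cd8a in 1 gene. Those genes were not matched to Cd8a by size of difference. A range as wide as that of Cd8a needs a large difference on at least 1 probe set. Of the 11404 measured genes, none had a larger difference in favour of CD8+ DCs than Cd8a.

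The stretch upstream of Cd8a is shown because this gene had the largest difference in favour of CD8+ DCs. Of the 3 co-receptor genes, 1 had an entry in the promoter table, which comes from RefSeq on GRCm38.p6. The window holds the 250 bases before the annotated start, chr6:71373177-71373426 on the plus strand, written 5′ to 3′ with the matches of the searched motifs in capitals.
Cd8a: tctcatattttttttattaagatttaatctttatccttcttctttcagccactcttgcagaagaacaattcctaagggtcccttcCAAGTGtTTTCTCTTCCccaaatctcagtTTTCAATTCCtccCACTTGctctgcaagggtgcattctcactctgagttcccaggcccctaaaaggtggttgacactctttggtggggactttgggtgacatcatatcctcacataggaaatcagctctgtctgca

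Both strands were searched for 6 motifs. The composite motif of ETS and IRF factors (GGAA, any 2 bases, then GAAA) matched 2 times, on the strand opposite to the gene, with first bases 158 and 136 bases upstream of the start. Of all 32851 windows of this length in the table, 2.3% held at least 1 match to it. The E-box (CANNTG) matched 2 times, beginning 165 and 123 bases upstream, and 66.2% of windows held it. No other match was found: the RUNX motif (TGTGGT, in 14% of windows), the STAT motif (TTCNNNGAA, 7.02%), the AP-1 motif (TGANTCA, 6.75%) and the TATA motif (TATAAA, 12.4%) are not spelled in these 250 bases. The first E-box begins before and the second E-box begins after the 2 composite matches, and none of these matches overlap. A match describes the letters and does not show that a factor binds.

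Cd8b1, which encodes the CD8β chain that T cells pair with CD8α, was below the floor on both arrays. Its single probe set, 1426170_a_at, read 3.05 in CD8+ DCs against 2.66 in CD8- DCs. The CD8+ array was the higher by 0.39, a difference between near-background values that carries no fold, and with both values raised to the floor it was 0. On the arrays where Cd8a differed by 6.14, no signal above the floor was seen for the other CD8 chain, and with 1 probe set this could not be compared with a second reading.

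Cd4 was higher in CD8- DCs on both of its probe sets. Probe set 1419696_at read 4.68 in CD8+ DCs against 6.64 in CD8- DCs, a difference of -1.96 or 3.90-fold. Probe set 1427779_a_at read 3.84 in CD8+ DCs, just under the floor, and 5.64 in CD8- DCs, a difference of -1.80 or at least 3.47-fold. The CD8- array was the high one each time, and the CD8+ array was within 1 unit of the floor. On the linear scale the Cd4 signal of CD8+ DCs was 25.6% of that in CD8- DCs for the first probe set and at most 28.8% for the second. The 2 differences lay 0.16 apart, where the median over the 2984 genes with 2 measured probe sets was 0.19. CD4 was not among the sort markers.

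Read against all genes, the 3 genes took different places. Of the measured genes, 3.55% were higher in CD8+ DCs by 2-fold or more, and of the measured probe sets 3.27% were. All 5 Cd8a probe sets were among those probe sets. In the other direction 5.97% of genes and 5.64% of probe sets were higher in CD8- DCs by 2-fold or more, both Cd4 probe sets among them. By its brighter probe set, Cd4 had 243 genes with a more negative difference, which places it in the lowest 2.14% of the 11404. The median difference over all measured genes was 0.03, with quartiles of -0.24 and 0.26. The Cd8a difference less the Cd4 difference was 8.11 log2 units. Cd8b1 was not in these counts, because it did not reach the floor.

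**Figure D2:**
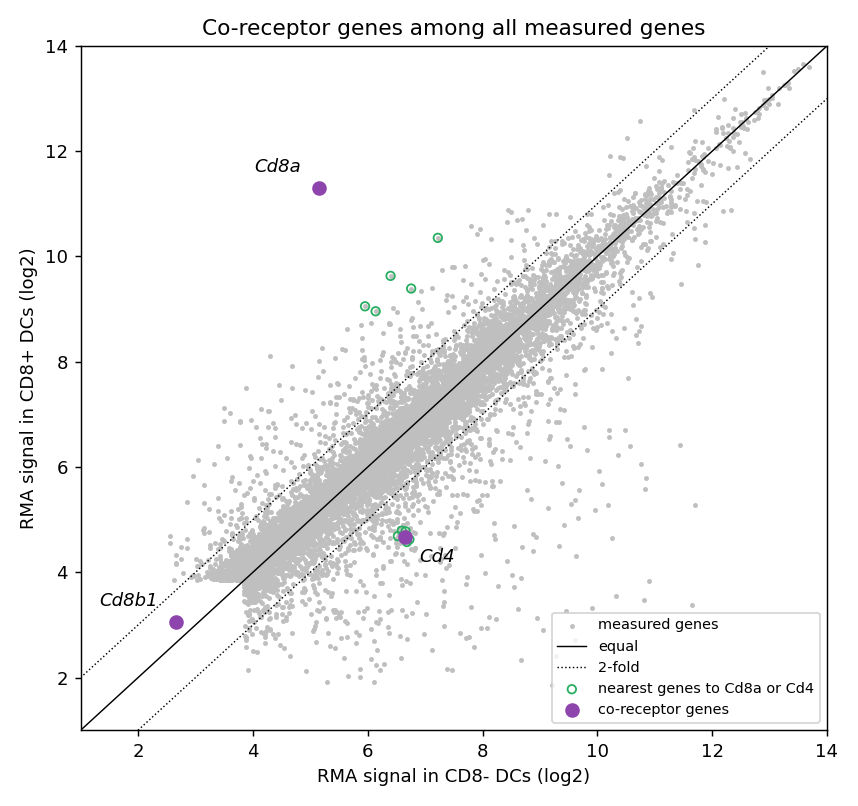
Each grey point is 1 of the 11404 measured genes, by its RMA signal (log2) in CD8- DCs (horizontal) and in CD8+ DCs (vertical), 1 array each. The solid line marks equal signal, the dotted lines a 2-fold difference, purple points the co-receptor genes and green rings the 5 genes nearest to Cd8a and to Cd4. Cd8a lies alone at the upper left, Cd4 lies below the lower dotted line among many genes, and Cd8b1 is near the bottom left corner, under the floor.

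No measured gene had both values close to those of Cd8a. Likeness was taken as the straight-line distance between genes in the plane of both log2 values, over the 2 arrays, which describes probe set readings and not transcript amounts. The nearest to Cd8a was the intracellular serpin gene Serpinb6b, at 9.63 in CD8+ DCs against 6.40 in CD8- DCs, a distance of 2.08. It was followed by the adhesion molecule gene Cadm1 (distance 2.27, with 10.35 in CD8+ DCs against 7.22 in CD8- DCs), Hepacam2 (distance 2.38), the lipid phosphatase gene Plpp1 (distance 2.49) and Fam149a (distance 2.53). Their differences were 2.63 to 3.23. Around Cd4 the plane was crowded, with 50 genes within a distance of 0.5, where Cd8a had 0. The 5 nearest were Gga2, a Golgi sorting adaptor gene (4.78 in CD8+ DCs against 6.66 in CD8- DCs), the IκB family gene Bcl3, the interleukin 21 receptor gene Il21r, the gamma-glutamyl hydrolase gene Ggh and the sialyltransferase gene St8sia1, at distances of 0.10 to 0.12 and with differences of -2.11 to -1.80. For Cd8b1 the nearest measured genes, Ido1, Klhl23, Plpp3, Tnxb and Flicr, lay at the edge of the floor (distances 0.80 to 0.94), and no order is read from them.

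All 3 genes are on mouse chromosome 6. Cd8b1 and Cd8a follow each other in the order of protein-coding genes there, and Cd4 lies elsewhere on the chromosome, beside Lag3, whose product is a relative of CD4 that also binds class II molecules. The neighbours were compared by their own differences. After Cd8a in that order came Rmnd5a, which encodes a subunit of a ubiquitin ligase complex (7.76 in CD8+ DCs against 7.89 in CD8- DCs), the ubiquitin ligase gene Rnf103 (7.29 in CD8+ DCs against 6.94 in CD8- DCs) and the ESCRT-III gene Chmp3 (6.93 on both). On the side of Cd8b1 came Gm1070 (difference 0.14), Krcc1 (8.19 in CD8+ DCs against 7.60 in CD8- DCs) and the muscle methyltransferase gene Smyd1 (difference 0.37). None of these 6 neighbours differed by 2-fold, where 9.52% of all measured genes did in either direction. Most genes stayed under 2-fold, so this is not particular to the neighbours.

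The measured neighbours of Cd4 also stayed under 2-fold, as did most measured genes. Lag3 was at 4.27 in CD8+ DCs against 4.57 in CD8- DCs, so it was slightly above the floor and differed by -0.30. Beyond it, the parathymosin gene Ptms read 8.85 in CD8+ DCs against 8.46 in CD8- DCs, and Mlf2 differed by 0.20. On the other side, the orphan receptor gene Gpr162 differed by -0.35, while the collagen-modifying hydroxylase gene P3h3 and the G protein subunit gene Gnb3 were below the floor on both arrays.

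**Figure D3:**
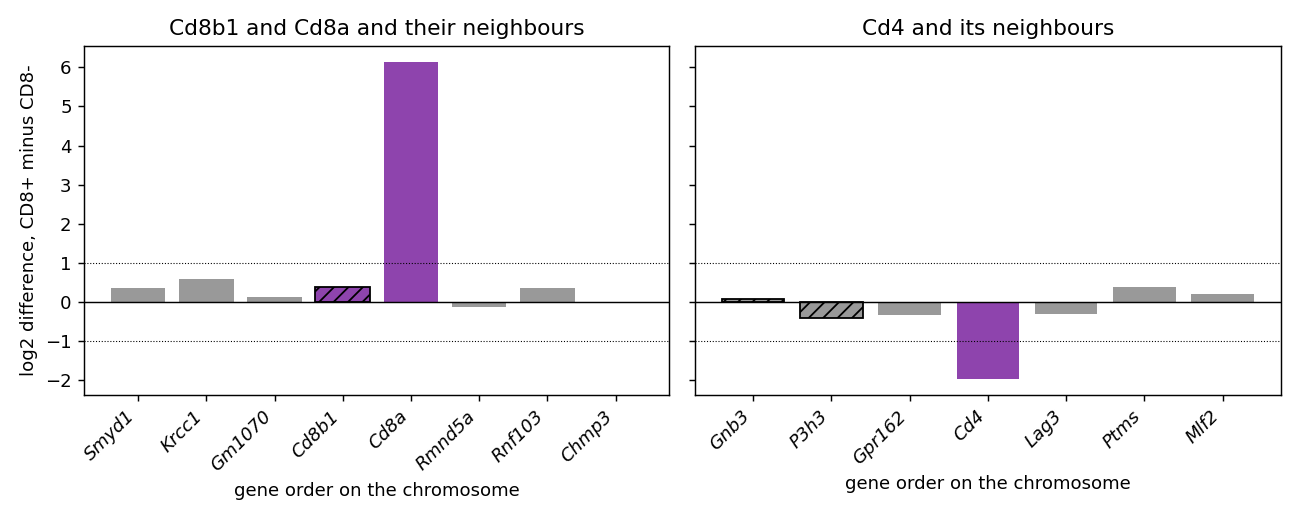
Log2 differences (CD8+ minus CD8-, vertical axis) of the co-receptor genes (purple) and of the 3 protein-coding genes on either side (grey), in chromosome order without distances. Hatched bars are genes below the floor on both arrays, and dotted lines mark 2-fold. Cd8a at 6.14 and Cd4 at -1.96 pass those lines, and Chmp3, at a difference of 0, has no visible bar.

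T cells of the spleen also carry these co-receptors, and most of the T cell genes checked were below the floor on both arrays. Of 28 listed T cell markers, 22 had a single-gene probe set and 16 of these were below the floor on both arrays. Over all genes with such a probe set, 11404 of 18194 were measured, so many other genes were below it as well. The CD3 genes, which encode the signalling chains of the T cell receptor, were Cd3e (4.76 in CD8+ DCs against 4.90 in CD8- DCs), Cd3d (3.19 in CD8+ DCs against 3.10 in CD8- DCs) and Cd3g (2.19 in CD8+ DCs against 2.53 in CD8- DCs). Cd247, Cd2, Cd6, Cd28, Thy1 and Bcl11b were also under the floor on both. The linear signal summed over the 22 genes was 348.3 in CD8+ DCs against 332.9 in CD8- DCs. Without the brightest gene, Zap70, the other 21 summed to 255.4 in CD8+ DCs against 247.5 in CD8- DCs. With 16 of the 22 genes below the floor, these sums hold background signal and do not measure T cell content. Among the 6 measured, Ctla4, an inhibitory receptor gene, was the 1 to pass 2-fold (5.08 in CD8+ DCs against 3.50 in CD8- DCs, at least 2.36-fold). Over all measured genes 9.52% passed 2-fold in either direction. Cd5, a scavenger receptor-like T cell antigen gene, was at 3.95 in CD8+ DCs against 4.87 in CD8- DCs. Zap70, a kinase gene of T and NK cells, was the brightest of the list and well above the floor, at 6.54 in CD8+ DCs against 6.42 in CD8- DCs, and Icos was at 4.85 on both arrays. The median difference of the 6 was -0.07. The part of T cells in the co-receptor differences was not tested.

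Markers of other spleen cells were checked in the same way, and several were, like Cd4, higher in CD8- DCs. Plasmacytoid DCs and B cells carry B220, which the sort gated against. How completely that gate removed them was not measured. For comparison, 5.97% of all measured genes were higher in CD8- DCs by 2-fold or more, and 3.55% in CD8+ DCs. Of 11 plasmacytoid DC markers measured, 2 were higher in CD8- DCs past 2-fold, the transcription factor gene Tcf4 (5.47 in CD8+ DCs against 7.55 in CD8- DCs) and the collagen receptor gene Lair1 (3.91 in CD8+ DCs against 7.74 in CD8- DCs). In the opposite direction, the chemokine receptor gene Ccr9 was 4.26-fold higher in CD8+ DCs, and the defining marker Siglech was near the floor, at 3.71 in CD8+ DCs against 4.04 in CD8- DCs. The summed linear signal of the list was 860 in CD8+ DCs against 983 in CD8- DCs, and its median difference was 0.01.

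The counts of the next lists stand beside 5.97% of all measured genes past 2-fold in favour of CD8- DCs and 3.55% in favour of CD8+ DCs. Of 10 macrophage and monocyte markers measured, 4 were past 2-fold in favour of CD8- DCs by values as measured. They were the F4/80 gene Adgre1 (4.63 in CD8+ DCs against 8.22 in CD8- DCs) and the complement genes C1qa, C1qb and C1qc. The CD8+ values of these complement genes lay below the floor. Their folds are therefore bounds, at least 2.75-fold for C1qa, 2.96-fold for C1qb and 1.72-fold for C1qc, so C1qc is not shown to pass 2-fold. In favour of CD8+ DCs, 1 marker passed 2-fold, the heme oxygenase gene Hmox1. The summed signal of that list was 1957 in CD8+ DCs against 1677 in CD8- DCs, an order set by the lysozyme gene Lyz2 (10.69 in CD8+ DCs against 10.11 in CD8- DCs). Without Lyz2 the other 12 genes summed to 300.2 in CD8+ DCs against 571.8 in CD8- DCs. The median difference of the list was 0.11, and Mertk and Spic were below the floor on both arrays. Of 6 measured B cell markers, 2 were past 2-fold, both higher in CD8- DCs, the antigen receptor chain gene Cd79b (at least 6.72-fold) and Spib (at least 21.4-fold), while Cd79a and Pax5 were below the floor on both arrays. Spib is also listed as a marker of the CD4+ part of CD8- DCs, so its value is not particular to B cells. Most of the summed signal of the B cell list, 1059 in CD8+ DCs against 1494 in CD8- DCs, came from the immunoglobulin heavy chain gene Ighm (9.83 in CD8+ DCs against 9.93 in CD8- DCs). The other 9 genes summed to 151.4 in CD8+ DCs against 519.0 in CD8- DCs, and they include Spib (3.73 in CD8+ DCs against 8.27 in CD8- DCs). Ms4a1, which encodes CD20, was at 5.74 in CD8+ DCs against 4.99 in CD8- DCs, and the median of the list was -0.20. Of 4 measured NK cell markers, 3 were higher in CD8- DCs by 2-fold or more, Ccl5, Tbx21 and Klre1, with Ncr1 and Nkg7 below the floor on both arrays and a median of -1.92. Their summed signal was 197.3 in CD8+ DCs against 1313 in CD8- DCs, and without Ccl5, a chemokine gene, the other 10 genes summed to 93.6 in CD8+ DCs against 140.9 in CD8- DCs. The part of such cells in the Cd4 difference was not tested.

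Among the sort and selection genes, Itgax and Flt3 were bright on both arrays. Itgax, which encodes CD11c, was at 9.80 in CD8+ DCs against 10.69 in CD8- DCs, and Flt3, the receptor of the cytokine that expanded the cells, was at 10.07 in CD8+ DCs against 9.80 in CD8- DCs. Ptprc was at 11.69 in CD8+ DCs against 12.42 in CD8- DCs, with probe sets at -0.73 and 0.01. Cd3e, whose product was gated against, was above the floor on both arrays (4.76 in CD8+ DCs against 4.90 in CD8- DCs). None of the 4 measured genes of that list reached 2-fold (median -0.44), where 9.52% of all measured genes did.

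Markers of the DC subsets lay on the side of their co-receptor, by amounts unlike those of the co-receptor genes. All 11 measured CD8+ DC markers other than Cd8a were higher in CD8+ DCs, 9 of them by 2-fold or more, with a median of 2.09 and a highest difference of 3.23 for Itgae, against 6.14 for Cd8a. All 10 measured CD8- DC markers other than Cd4 were higher in CD8- DCs, 9 by 2-fold or more, with a median of -4.72. Only 4 of these 10 reached the floor in CD8+ DCs, so that median rests partly on values below it. By the brightest probe sets Cd4, at -1.96, was thus nearer to 0 than 9 of these 10 markers. The endothelial adhesion molecule gene Esam, at -0.74 (4.94 in CD8+ DCs against 5.68 in CD8- DCs), was the 1 marker nearer to 0 than Cd4 on that measure. The order depended on the probe set, because Clec4a2 and Csf1r each had another measured probe set nearer to 0 than Cd4, at -1.01 and -1.82. These markers are textbook genes for the same division of DCs, so their direction is not independent evidence about it.

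CD8- DCs are themselves divided by CD4, and most measured markers of both subdivisions were higher in CD8- DCs. Among 9 measured genes listed for the CD4+, ESAM-high part, 5 were past 2-fold in favour of CD8- DCs and 0 in favour of CD8+ DCs (median -1.80). Over all measured genes these shares were 5.97% and 3.55%. The 5 were Spib, the Notch target gene Dtx1 (3.64 in CD8+ DCs against 7.33 in CD8- DCs), the inhibitory receptor gene Cd300a, the interleukin 1 receptor antagonist gene Il1rn and the prostaglandin D synthase gene Hpgds. All but Cd300a were below the floor in CD8+ DCs. Their folds are therefore bounds, at least 21.4-fold for Spib, 11.2-fold for Dtx1, 2.68-fold for Il1rn and 2.24-fold for Hpgds. Only 4 of the 9 genes reached the floor in CD8+ DCs, so that median rests partly on values below it. Notch2, which that part requires to develop, was at 10.53 in CD8+ DCs against 10.43 in CD8- DCs. Among 9 measured genes listed for the CD4-, ESAM-low part, 6 were past 2-fold toward CD8- DCs and 0 toward CD8+ DCs (median -3.45), including the chemokine receptor gene Ccr2 (6.03 in CD8+ DCs against 9.32 in CD8- DCs) and the transcription factor gene Klf4 (5.40 in CD8+ DCs against 8.85 in CD8- DCs). Of these 9 genes, 5 reached the floor in CD8+ DCs. CD4 was not gated, so the share of CD4+ cells among the CD8- DCs was not measured.

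**Figure D4:**
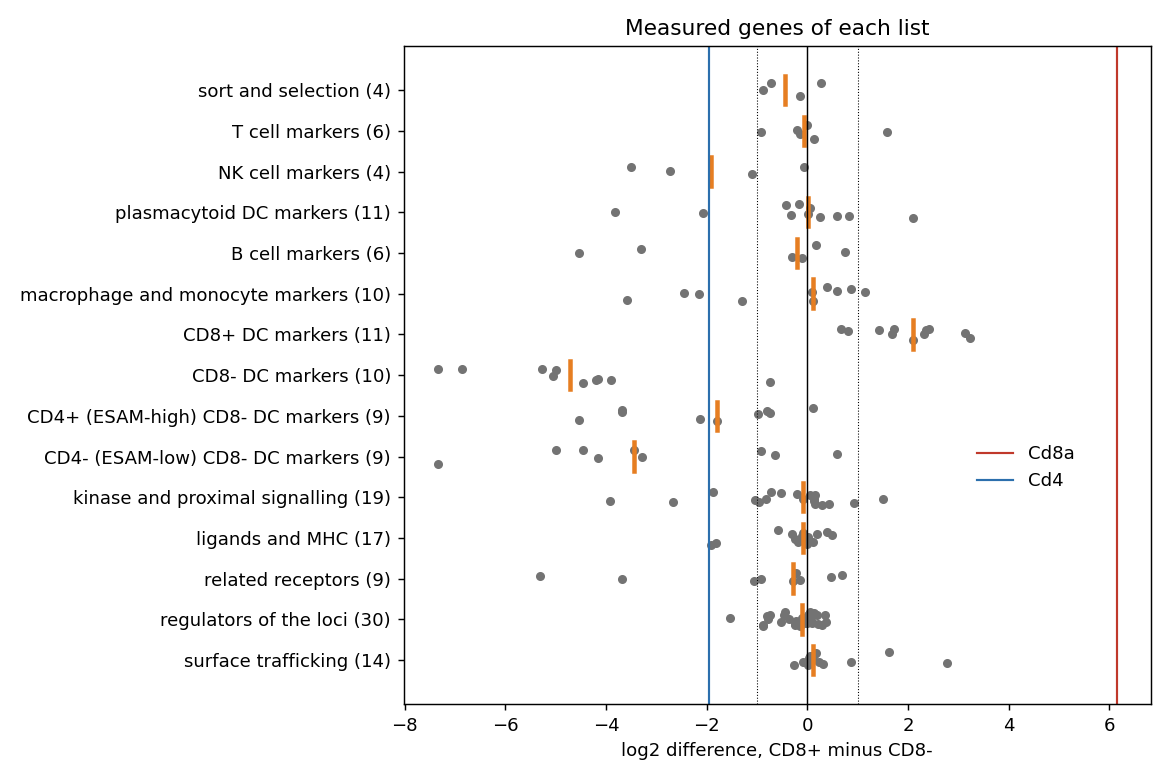
Log2 differences (CD8+ minus CD8-, horizontal axis) of the measured genes of each list, 1 grey point per gene, with an orange bar at the list's median and the number of measured genes after its name. The red line at 6.14 is Cd8a, the blue line at -1.96 is Cd4, and dotted lines mark 2-fold. No listed gene reaches the Cd8a line, while the CD8- DC markers lie mostly to the left of the Cd4 line.

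Kinases, phosphatases and adaptors that act next to a co-receptor in T cells, or their relatives, were compared next. LCK itself could not be described, because Lck had no single-gene probe set here. Of 19 measured genes of the list, 14 were under 2-fold, 4 passed 2-fold in favour of CD8- DCs and 1 in favour of CD8+ DCs, with a median of -0.10 against 0.03 for all genes. Over all measured genes 9.52% passed 2-fold in either direction. Fyn, another Src-family kinase gene of T cell signalling, was at 8.30 in CD8+ DCs against 8.25 in CD8- DCs. Zap70, whose product is recruited to the T cell receptor once LCK has acted, differed by 0.12, and the adaptor gene Lat was at 4.34 in CD8+ DCs against 4.56 in CD8- DCs.

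The 5 signalling genes past 2-fold were Fgr, Pag1, Ptpn6, Syk and Cblb. The myeloid Src-family kinase gene Fgr was at 5.22 in CD8+ DCs against 9.14 in CD8- DCs (15.1-fold higher in CD8- DCs), and its second probe set differed by -4.09. Pag1, whose product holds the inhibitory kinase CSK at the membrane, was at 4.87 in CD8+ DCs against 7.54 in CD8- DCs, though its 3 measured probe sets ran between -2.67 and 0.51. Ptpn6, the SHP-1 phosphatase gene, was at 8.81 in CD8+ DCs against 10.68 in CD8- DCs, with probe sets at -1.87 and -1.85. Syk, the ZAP-70 relative of myeloid and B cells, was at 6.70 in CD8+ DCs against 7.73 in CD8- DCs. The ubiquitin ligase gene Cblb was the 1 higher in CD8+ DCs (8.40 in CD8+ DCs against 6.90 in CD8- DCs), and the lowest of its 3 probe sets differed by 0.21.

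Of 18 genes of the ligand and MHC list with a probe set, 17 reached the floor, and the class I gene H2-Q10 was below it on both arrays. The class I genes bound by CD8 were bright on both arrays, H2-K1 at 12.17 in CD8+ DCs against 12.47 in CD8- DCs and H2-D1 at 12.26 in CD8+ DCs against 12.36 in CD8- DCs. H2-T3, which encodes the TL antigen that binds CD8α homodimers tightly, was at 5.79 in CD8+ DCs against 5.40 in CD8- DCs, with probe sets at -0.19 and 0.39. Class I genes are alike in sequence, so their probe sets may share signal. The interleukin gene Il16, whose product binds CD4, was at 9.16 in CD8+ DCs against 9.17 in CD8- DCs. The classical class II genes, whose products CD4 binds, were near equal, with H2-Aa at 13.60 in CD8+ DCs against 13.68 in CD8- DCs, H2-Ab1 at 13.20 in CD8+ DCs against 13.16 in CD8- DCs and H2-Eb1 at 12.99 on both arrays. Of the 17 measured genes, 15 were under 2-fold (list median -0.08), where 9.52% of all measured genes passed 2-fold in either direction. The other two were H2-DMb2, for a chain of the peptide-loading molecule H2-M, and the class II gene H2-Eb2, which were 3.76-fold and 3.54-fold higher in CD8- DCs.

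Among 16 other receptor genes of the immunoglobulin superfamily or the T cell surface, Cd7 differed most. Cd7, a T and NK cell surface glycoprotein gene, was at 4.31 in CD8+ DCs against 9.63 in CD8- DCs, 39.7-fold higher in CD8- DCs on its single probe set. Cd300a was 12.9-fold higher in CD8- DCs, with probe sets at -3.69 and -0.83, and the SLAM family gene Cd244a was 2.10-fold higher there. Of these genes, 9 were measured, 3 were past 2-fold, all higher in CD8- DCs, and the median was -0.30. Of all measured genes, 9.52% passed 2-fold in either direction. Cd2, Cd6, Cd28, Cd96, Cd226, Crtam and Pilra were below the floor on both arrays.

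Of 30 measured genes known to control the Cd4 and Cd8 loci in T cells or to work with such factors, 29 were under 2-fold and 1 passed it, where 9.52% of all measured genes did, and their median was -0.11. The exception was Satb1, a chromatin organiser gene, at 6.70 in CD8+ DCs against 8.24 in CD8- DCs, with all 3 measured probe sets between -1.67 and -1.16. Runx3, which silences Cd4 in cytotoxic T cells, was at 7.49 in CD8+ DCs against 8.39 in CD8- DCs, though its probe sets disagreed (-0.89 and 0.11). Zbtb7b, which encodes the helper lineage factor ThPOK, was at 5.97 in CD8+ DCs against 5.88 in CD8- DCs, with probe sets at -0.49 and 0.09. Patz1, which encodes a repressor of Cd8 known as MAZR, was at 6.86 in CD8+ DCs against 6.50 in CD8- DCs, with probe sets at -0.07 and 0.36. The RUNX partner gene Cbfb was at 10.16 in CD8+ DCs against 10.41 in CD8- DCs. The T cell factors Gata3, Tox, Bcl11b and Lef1 were below the floor on both arrays, as was Ikzf2.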

How the data were processed

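Total RNA of each population was labelled as biotinylated cRNA by the Affymetrix protocol, per the labels. The authors deposited log2 signals made with RMA, per the submitters' processing notes. The version, and which arrays were normalised jointly, is not stated in the sources used here. RMA corrects background, makes the distributions of arrays alike and summarises each probe set, so a shift shared by most genes would not be seen and dim values are compressed. Probe sets were named by the platform annotation, with symbols updated by gene identifier from RefSeq (34754 of 34958 matched). The probe set with the highest mean stood for a gene, counts used values as measured, and a value below the floor of 3.85 gives a bound, "at least". With 1 array per population there was no test, and the number of arrays limits the precision. Lists of 242 entries in 15 groups came from general knowledge. The named genes were all co-receptor probe sets, the 5 nearest genes to each (predicted genes left out), the 3 protein-coding neighbours on either side, any measured gene of the sort, signalling, ligand, locus and related receptor lists, and of other lists up to 4 with the largest difference and up to 4 defining markers. Some further list members were named after their values were seen: Cd2, Cd6, Cd28, Thy1, Cd247, Bcl11b, Hpgds, Hmox1, Lyz2, Ighm, Ms4a1, Zap70, Icos and Cd82. The members and lists were chosen with earlier results of these data known. Calculations used Python 3.11.15, numpy 2.4.6, pandas 2.3.3 and statsmodels 0.14.6, and were tested on simulated data.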

Additional observations from a re-analysis of the deposited data

How the results depend on the processing

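Cd8a kept its sign under each of the 6 alternatives, and its difference of 6.14 was 4.94 with the mean of all its probe sets and 5.40 with their median. The Cd8a difference less the Cd4 difference, 8.11, was 6.82 and 7.28 under the same choices. The Cd4 difference lay between -1.997 and -1.88 under all 6. For Cd8b1, whose 0.39 was 0 with values raised to the floor and 0.11 less a lowess trend, no median of measured probe sets could be had. At 1.5-fold, 968 genes favoured CD8+ DCs and 1314 favoured CD8- DCs, and at 4-fold 98 and 239, against 405 and 681 at 2-fold. The other 8 settings gave 305 to 412 and 505 to 714. A difference counted as moved where it shifted by more than 0.30, the pooled SD between probe sets of a gene. For the numbers of genes past the threshold, a change by a factor of more than 1.5 counted as moved. No paired analysis was possible because each population had 1 array, and no array could be left out.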

Other observations

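Genes for the surface handling of co-receptors, such as clathrin adaptors, palmitoyl transferases and tetraspanins, had a median difference of 0.12, and 2 of 14 passed 2-fold, where 9.52% of all measured genes did. The tetraspanin gene Cd81, whose product associates with CD4 and CD8 at the T cell surface, was at 10.58 in CD8+ DCs against 7.80 in CD8- DCs, 6.86-fold higher in CD8+ DCs. The palmitoyl transferase gene Zdhhc2 was at 5.03 in CD8+ DCs against 3.41 in CD8- DCs, at least 2.28-fold higher, and its 3 measured probe sets lay between 1.15 and 1.67. The tetraspanin genes Cd9 (10.48 in CD8+ DCs against 9.61 in CD8- DCs) and Cd82 (9.43 in CD8+ DCs against 9.27 in CD8- DCs) were under 2-fold.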
